A study of Mus musculus with 4 samples.

Results

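The adipokines, hormones and signal proteins that fat tissue releases into the blood, were followed in gonadal white adipose tissue (gWAT) of mice lacking the DNA methyltransferase Dnmt1 in adipocytes. They were taken as the 9 genes Adipoq, Lep, Retn, Cfd, Rbp4, Nampt, Rarres2, Sfrp5 and Apln, chosen by name. Each matched 1 row of the deposited expression table, which lists 17335 genes. The groups were female AD1KO mice, in which adiponectin-Cre deletes floxed Dnmt1 in adipocytes, and their female Dnmt1 fl/fl littermates. Both groups were fed a high-fat diet (HFD) with 60% of calories from fat, for 18 weeks according to the labels; the ages of the mice were not given in the sources used here. Cre is expressed from a transgene under the promoter of adiponectin, itself an adipokine followed here, so the deletion was directed to adipocytes. The libraries came from the whole pad with its vascular, stromal and immune cells. RNA of 4 animals per group was pooled into 1 library, so that the spread between animals was not measured and no p-value is given. The 2 bisulfite sequencing samples of the series, from epididymal fat of C57BL/6J mice on a low-fat or high-fat diet, were not analysed here.

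Expression was given as FPKM, a count of fragments scaled to transcript length and library depth. The low FPKM values fell near whole reads when the fl/fl library was taken to hold 17574369 reads and the AD1KO library 17416909, and reads per gene were estimated from these depths. The intervals below are exact 95% intervals on the estimated reads. They cover counting error only and say nothing of how animals differ. Each log2 ratio is AD1KO over fl/fl after adding 0.01 FPKM, and a gene counted as higher or lower at a log2 ratio of at least 0.5 in either direction, the cutoff of the study's methods. Dnmt1, the targeted gene, was at 6.99 FPKM in fl/fl and 3.33 FPKM in AD1KO, a log2 ratio of -1.07 (interval -1.27 to -0.87), so the lower level lay in the library labelled AD1KO. Esr1, the estrogen receptor gene that the study centres on, was at 4.82 and 8.44 FPKM (log2 ratio 0.81, interval 0.65 to 0.97). The label of fat tissue went with the level of Fabp4, a fatty acid binding protein of adipocytes, at 11151 FPKM in fl/fl and 15920 FPKM in AD1KO. The gonadal depot was not checked by markers.

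Adipokines link the fat store to appetite, insulin action, vascular tone and immunity. Adiponectin and leptin, the products of Adipoq and Lep, come almost wholly from adipocytes. Resistin (Retn) and adipsin (Cfd) are made by mouse adipocytes too, while RBP4 is also made by the liver, and NAMPT, chemerin (Rarres2) and apelin are made by many cell types. In obesity circulating leptin typically goes up with fat mass and adiponectin goes down.

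Of the 9 adipokines, 6 were higher in AD1KO and 0 were lower by this cutoff, where 14.3% of the 15839 tested genes were higher, 19.1% lower and 33.4% either. The 6 were Cfd, Rbp4, Retn, Adipoq, Sfrp5 and Lep, with log2 ratios from 1.50 down to 0.58, and for each of them the whole counting interval lay above 0.5, which held for 4.17% of tested genes, while 8.28% had an interval wholly below -0.5. A log2 ratio above 0 was found for 8 of the 9 adipokines and 45.3% of tested genes. Rarres2, Apln and Nampt did not reach the cutoff in either direction. The median log2 ratio of the 9 adipokines was 0.68, beside -0.04 for all tested genes. Among the 886 genes with a mean of at least 100 FPKM, a level that 7 of the 9 adipokines reached, 11.9% were higher, 14.7% were lower and the median was -0.01. Together the 9 genes took 0.615% of the estimated reads in fl/fl and 1.03% in AD1KO.

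**Figure D1:**
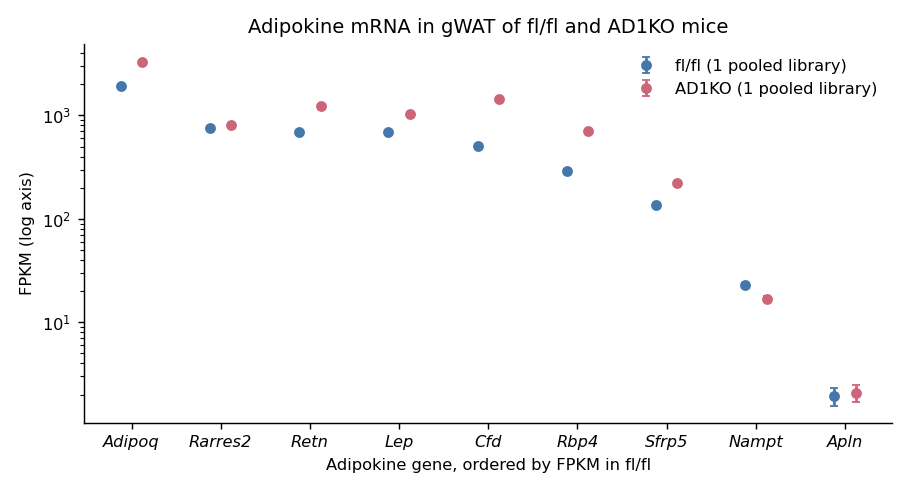
FPKM (log axis) of the 9 adipokine genes in the fl/fl and AD1KO libraries, 1 pooled library each, with exact 95% counting intervals that are mostly smaller than the points. Adipoq is highest in both libraries, Cfd moves from 511 to 1441 FPKM and passes Rarres2, and Apln is near 2 FPKM in both.

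In fl/fl the order of the levels per length was Adipoq, Rarres2, Retn, Lep, Cfd, Rbp4, Sfrp5, Nampt and Apln. The counting intervals of Retn (677 to 712 FPKM) and Lep (683 to 697 FPKM) overlapped there, and those of all other neighbours in the order were apart. In AD1KO Cfd took the second place and Rarres2 the fifth, with the other places unchanged, and no neighbours overlapped. Cfd was at 0.677 times the FPKM of Rarres2 in fl/fl and at 1.79 times in AD1KO.

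Adipoq encodes adiponectin, a collagen-like hormone that enhances insulin action (gene 11450, mm9 chromosome 16, 23146609 to 23158101, plus strand, 3 exons). It was at 1911 FPKM in fl/fl and 3318 FPKM in AD1KO, from about 37513 and 64547 reads, a 1.74-fold higher level. The log2 ratio was 0.80 (interval 0.78 to 0.81). It stood in place 30 among tested genes in fl/fl and in place 11 in AD1KO, and 92.1% of tested genes had a lower ratio. The nearest genes by level in both libraries were Hp (2212 and 3599 FPKM), Lpl (2436 and 3195 FPKM) and Scd1 (1778 and 2538 FPKM), which encode haptoglobin, lipoprotein lipase and a fatty acid desaturase. Likeness here is the distance over log2 FPKM in only 2 libraries.

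Lep encodes leptin, the hormone that reports fat stores to the brain (gene 16846, chromosome 6, 29010220 to 29023877, plus strand, up to 3 exons). It was at 690 FPKM in fl/fl and 1028 FPKM in AD1KO, with about 38062 and 56193 reads. At 0.58 (interval 0.56 to 0.59), the log2 ratio was the smallest of the 6 and lay just past the cutoff. Adipoq was 2.77 times as high as Lep in fl/fl and 3.23 times in AD1KO. The genes nearest to Lep by level were Mgst1 (709 and 959 FPKM), Dgat2 (696 and 1195 FPKM) and Gpx4 (791 and 958 FPKM), which encode a glutathione transferase, an enzyme of triglyceride synthesis and a lipid peroxidase.

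DNMT1 copies methylation onto CpG sites, so the number of CpG sites before each gene's start is part of what the members do or do not share. The 250 bases upstream of the RefSeq start sites of Adipoq and Lep are shown because these 2 genes, alike in cell type and direction, differ in CpG content. They are given 5′ to 3′ on the gene's strand in the GRCm38.p6 build, with CpG sites in capitals, at chr16:23146286-23146535 and chr6:29059971-29060220. That build is not the mm9 of the gene positions.
Adipoq: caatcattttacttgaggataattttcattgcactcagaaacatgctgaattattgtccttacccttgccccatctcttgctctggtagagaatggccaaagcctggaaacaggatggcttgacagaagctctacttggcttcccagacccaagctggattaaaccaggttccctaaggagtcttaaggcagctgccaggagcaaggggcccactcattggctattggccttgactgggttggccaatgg
Lep: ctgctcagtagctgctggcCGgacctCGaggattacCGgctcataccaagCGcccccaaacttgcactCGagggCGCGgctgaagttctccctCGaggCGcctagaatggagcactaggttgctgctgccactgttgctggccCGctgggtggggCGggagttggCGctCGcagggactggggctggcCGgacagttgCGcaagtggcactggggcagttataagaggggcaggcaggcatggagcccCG
The Adipoq window held 0 CpG sites and the Lep window 16.

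Cfd encodes adipsin, which is complement factor D, the protease that starts the alternative complement pathway and one of the most abundant products of fat cells (gene 11537, chromosome 10, 79353598 to 79355401, plus strand, 5 exons). It was at 511 FPKM in fl/fl and 1441 FPKM in AD1KO, from about 7401 and 20682 reads. The log2 ratio of 1.50 (interval 1.46 to 1.53), a 2.82-fold higher level, was the largest among the adipokines, and 97.1% of tested genes had a lower one. Of the adjoining genes, Med16, which encodes a Mediator subunit and lies 2050 bases downstream, was at 13.9 FPKM in fl/fl and 15.8 FPKM in AD1KO. Elane, the neutrophil elastase gene 2636 bases upstream, had 0.49 and 1.07 FPKM, some 7 and 15 reads, with an interval of the log2 ratio (-0.27 to 2.65) that includes 0.

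Rbp4 encodes the plasma carrier of retinol, made by liver and fat (gene 19662, chromosome 19, 38191110 to 38199811, minus strand, up to 6 exons). It was at 293 FPKM in fl/fl and 704 FPKM in AD1KO, from about 4202 and 10012 reads. The log2 ratio was 1.27 (interval 1.21 to 1.32), a 2.40-fold higher level. Cfd and Rbp4 were the only adipokines above a log2 ratio of 1, which 5.75% of tested genes exceeded. Hepatocyte genes were higher as well: all 5 of the list passed the cutoff of 0.5, beside 14.3% of tested genes. Their sum went from 73.6 to 148 FPKM, and for 3 of the 5 the whole counting interval lay above 0.5. Alb, the albumin gene, went from 39.98 to 89.6 FPKM and Ttr, the carrier to which RBP4 binds in plasma, from 8.22 to 17.3 FPKM. The part of such transcripts in the Rbp4 value was not tested.

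The upstream windows of Cfd and of the downstream start site of Rbp4 are shown because these 2 genes had the largest ratios of the adipokines. They lie at chr10:79890603-79890852 and chr19:38124812-38125061 of GRCm38.p6, the latter on the minus strand.
Cfd: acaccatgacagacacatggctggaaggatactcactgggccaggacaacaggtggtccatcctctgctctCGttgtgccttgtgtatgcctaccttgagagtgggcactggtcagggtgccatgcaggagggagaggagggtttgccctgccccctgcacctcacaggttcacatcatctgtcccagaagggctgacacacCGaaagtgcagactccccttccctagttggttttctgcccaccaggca
Rbp4: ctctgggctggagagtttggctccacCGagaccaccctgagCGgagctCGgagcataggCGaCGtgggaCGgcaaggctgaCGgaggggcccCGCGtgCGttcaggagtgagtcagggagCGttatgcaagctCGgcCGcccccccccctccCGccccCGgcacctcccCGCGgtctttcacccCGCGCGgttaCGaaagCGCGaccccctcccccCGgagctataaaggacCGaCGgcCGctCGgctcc
These windows held 2 and 28 CpG sites.

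Retn encodes resistin, which counters insulin action in mice (gene 57264, chromosome 8, 3655770 to 3660110, plus strand, up to 5 exons). It was at 694 FPKM in fl/fl and 1246 FPKM in AD1KO, with about 6039 and 10745 reads. The log2 ratio was 0.84, and its interval (0.80 to 0.89) overlapped that of Adipoq. Of the 2 tested resistin-like paralogs, 0 were higher and 1, Retnlg, counted as lower. Retnla, a gene of alternatively activated macrophages, was at 549 FPKM in fl/fl and 445 FPKM in AD1KO, with a log2 ratio of -0.31 (interval -0.37 to -0.24). Retnlg had 1.61 and 0.93 FPKM with only about 14 and 8 reads behind them, and the interval of its log2 ratio of -0.79 (-2.25 to 0.56) includes 0.

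Sfrp5 encodes a secreted frizzled-related protein that binds WNT5A (gene 54612, chromosome 19, 42272461 to 42276742, minus strand, 3 exons). It was at 137 FPKM in fl/fl and 220 FPKM in AD1KO, from about 4297 and 6837 reads, with a log2 ratio of 0.68 (interval 0.63 to 0.74). Wnt5a, its ligand partner, was higher as well, at 4.45 FPKM in fl/fl and 7.68 FPKM in AD1KO (log2 ratio 0.79, interval 0.58 to 1.00).

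The other 3 adipokines stayed within the cutoff. Rarres2, encoding chemerin, a chemoattractant for cells with the receptor CMKLR1, was at 755 FPKM in fl/fl and 807 FPKM in AD1KO (gene 71660, chromosome 6, 48519697 to 48522669, minus strand, 6 exons). About 9556 and 10122 reads stood behind these levels, and the log2 ratio was 0.10 (interval 0.06 to 0.14). Lrrc61 overlaps it on the opposite strand. It was listed at 7.11 and 7.10 FPKM, and how reads in the overlap were assigned is not given in the sources used here.

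Nampt encodes the enzyme that makes nicotinamide mononucleotide for the recycling of NAD, and is also released as visfatin (gene 59027, chromosome 12, 33505200 to 33538234, plus strand, 11 exons). It was at 22.9 FPKM in fl/fl and 16.9 FPKM in AD1KO, from about 1782 and 1306 reads. The log2 ratio of -0.44 was just short of the cutoff, and its interval (-0.54 to -0.33) reached past it. Nampt was the only adipokine with the lower value in AD1KO. Gdap10, a long noncoding RNA gene, overlaps it on the same strand and was not analysed here, and the assignment of reads in that overlap is likewise unknown. Apln, encoding apelin, a peptide of vascular tone and angiogenesis, had 1.92 and 2.06 FPKM, or about 103 and 109 reads (gene 30878, chromosome X, 45378323 to 45388030, minus strand, 3 exons). The interval around its log2 ratio of 0.10 reached from -0.31 to 0.50 and includes 0.

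**Figure D2:**
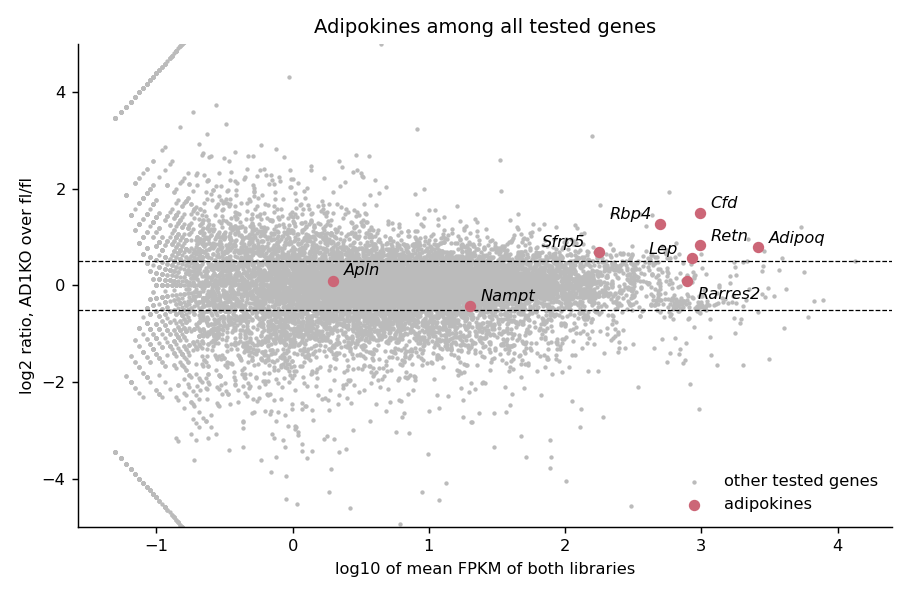
Log2 ratio of AD1KO over fl/fl against the log10 of the mean FPKM of both libraries, for the 15839 tested genes (grey) and the 9 adipokines (red). Dashed lines mark the cutoff of 0.5, and 131 genes lie beyond the axis limit of 5. Cfd and Rbp4 lie at the upper edge of the abundant genes, at log2 ratios of 1.50 and 1.27.

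Across the RefSeq promoter windows, 8 of the 9 members were matched, in 9 windows, and Rarres2 was not. Their CpG counts ran from 0 to 28 per 250 bases, beside a median of 6 over 32841 windows of all genes. Adipoq (0 sites), Cfd (2) and Retn (2) lay at or below the lower quartile of 2 sites. Sfrp5 (13) and Lep (16) lay above the median, as did Apln (12), and the downstream start site of Rbp4 (28) and Nampt (27) lay above the upper quartile of 16. The upstream start site of Rbp4 had 5. The higher adipokines thus included windows from 0 to 28 CpG sites, and the 2 matched adipokines within the cutoff, Apln and Nampt, had 12 and 27. Letters of a C/EBP-type site, TTGCNNAA on either strand, occurred in the windows of Lep and Rbp4 and in 9.57% of all windows. The Lep match is a palindrome and so was found on both strands. CCAAT, on either strand, occurred 3 times in the Adipoq window and in 33.9% of all windows, and once in the upstream window of Rbp4. AGGTCA was found in the Nampt window (14.0% of all windows) and TATAAA in the downstream window of Rbp4 (12.4%). Methylation at these windows was not analysed here.

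**Figure D3:**
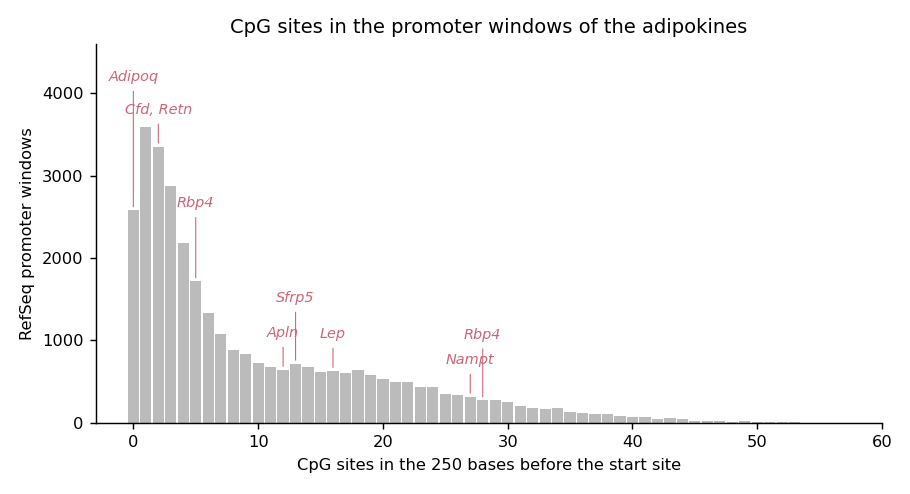
Number of RefSeq promoter windows (vertical axis) by the number of CpG sites in the 250 bases before the start site (horizontal axis), with the windows of the adipokines marked by name. The marked windows run from Adipoq at 0 to Rbp4 at 28, and Rbp4 has 2 windows.

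Adipokine mRNA in whole tissue depends on how much of the RNA came from adipocytes, so the adipokines were set beside markers of the cell types of the pad. In the RNA of such tissue, fewer cells of a type and less RNA per cell cannot be told apart. Adipocyte markers were higher too: 12 of 19 passed the cutoff, 0 were lower, and the median log2 ratio was 0.54. They ranged from Cd36, a fatty acid transporter, at 0.14 (838 and 926 FPKM) to Car3, a carbonic anhydrase, at 1.22 (3238 and 7533 FPKM), and their summed level went from 22238 to 35142 FPKM. Macrophage markers went the other way, with 10 of 12 lower, 0 higher, a median of -0.89 and summed levels of 3800 and 1877 FPKM. Of these, Fcgr1, an Fc receptor, had a log2 ratio of -2.03 and Cd163, a scavenger receptor, one of 0.30. All 10 T and NK cell markers were lower (median -1.83, 109 to 30.5 FPKM in sum). Mesothelial markers were higher in 6 of 6 cases (87.2 to 162 FPKM in sum) and smooth muscle markers in 5 of 6 (233 to 455 FPKM in sum), while 7 of 8 endothelial markers did not pass the cutoff (median 0.30). None of these marker lists had a gene at 0 in either library. The part of these shifts in the adipokine values was not tested.

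**Figure D4:**
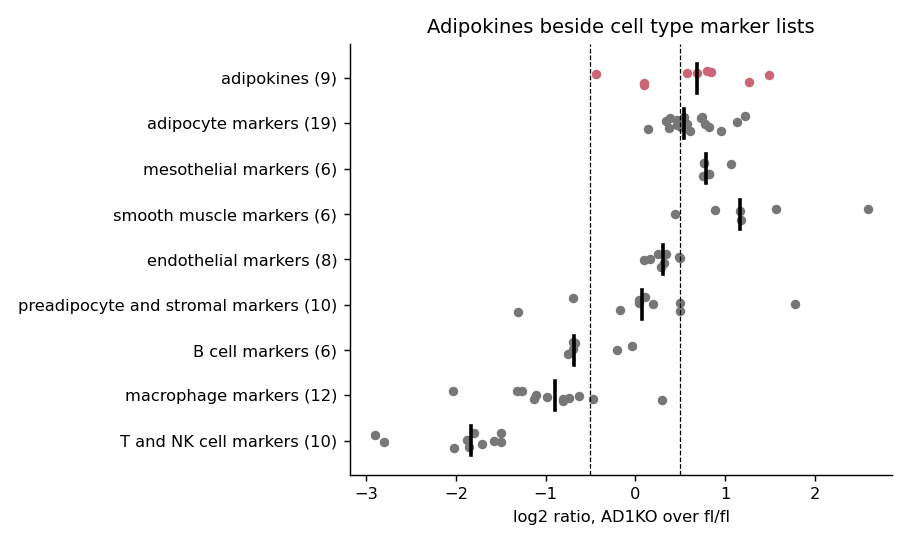
Log2 ratio of AD1KO over fl/fl (horizontal axis) for each tested gene of the adipokines (red) and of 8 marker lists (grey), with list sizes in parentheses, the median as a black bar and the cutoff of 0.5 as dashed lines. The adipokine median of 0.68 and the adipocyte marker median of 0.54 lie on the same side, and the macrophage and T and NK cell medians, -0.89 and -1.83, on the other.

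Measured from the median of the adipocyte markers, the adipokines divided differently. Cfd lay 0.95 and Rbp4 0.72 above it on the log2 scale, both with a higher ratio than each of the 19 markers. The counting interval of Cfd was apart from those of all 19, while that of Rbp4 overlapped those of 2, Car3 and Acvr1c. Retn lay 0.30, Adipoq 0.25, Sfrp5 0.14 and Lep 0.03 above it, within the range of the markers, of which 16, 15, 12 and 10 had a lower ratio than these genes. Apln lay 0.44, Rarres2 0.45 and Nampt 0.98 below it on the log2 scale, with lower ratios than all 19 markers. Only the interval of Nampt was apart from all 19, as that of Rarres2 overlapped Cd36 and that of Apln overlapped 7 markers. With this centring 2 adipokines were higher and 1, Nampt, was lower by the cutoff of 0.5, beside 5.27% of tested genes higher and 58.5% lower, so that a lower call was the more common one. The counting interval of Lep relative to the same median, taken as fixed, ran from 0.01 to 0.05. That range leaves out the counting error of the markers, and the interval of Lep itself overlapped those of 5 markers. Without Car3 the median distance of the adipokines from the markers was 0.14, as with it.

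**Figure D5:**
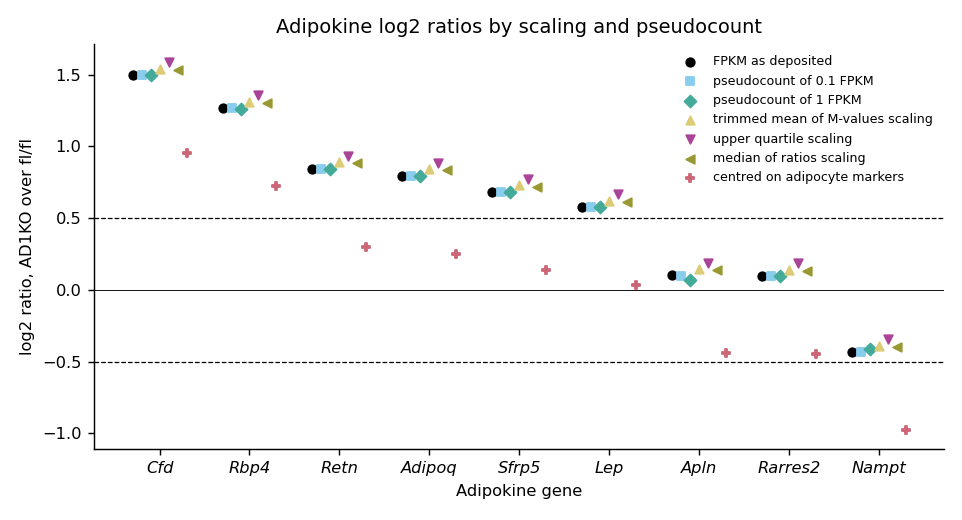
Log2 ratio of AD1KO over fl/fl for each adipokine under the deposited FPKM scale, 2 other pseudocounts, 3 other scalings and centring on the adipocyte marker median, with dashed lines at 0.5 in either direction. Only centring moves Retn, Adipoq, Sfrp5 and Lep inside the cutoff, and Cfd (0.95) and Rbp4 (0.72) stay outside it.

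Genes that act with the adipokines were followed by role. Among 10 tested receptor genes, 0 were higher and 3 were lower, with a median log2 ratio of 0.18. The adiponectin receptors Adipor1 (52.2 and 54.3 FPKM) and Adipor2 (95.9 and 123 FPKM) had log2 ratios of 0.06 and 0.35, and Cdh13, encoding the T-cadherin that binds adiponectin, one of 0.38 (4.98 and 6.50 FPKM). Cap1, whose product binds resistin, was lower at 154 and 103 FPKM (log2 ratio -0.57, interval -0.63 to -0.52), and so was Ccrl2, which presents chemerin, at 5.65 and 3.63 FPKM (-0.64, interval -0.96 to -0.33). Stra6, the RBP4 receptor, was the other gene counted as lower, at 0.13 and 0.06 FPKM from 6 and 3 reads, with an interval (-3.61 to 1.24) that includes 0. The chemerin receptor Cmklr1 was at 23.9 and 23.8 FPKM, the second chemerin receptor Gpr1 at 1.34 and 1.83 FPKM, the apelin receptor Aplnr at 6.38 and 7.83 FPKM and the leptin receptor Lepr at 0.37 and 0.52 FPKM.

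Of the endoplasmic reticulum genes for adiponectin assembly, Gstk1, encoding DsbA-L, was higher, at 45.9 and 69.8 FPKM (log2 ratio 0.61, interval 0.46 to 0.75). Ero1l, Erp44 and P4hb were within the cutoff, at 0.07, -0.20 and 0.07. The 9 tested C1q/TNF paralogs of Adipoq had a median of 0.15, and only C1qtnf3 passed the cutoff, at 2.81 and 4.16 FPKM (0.56, interval 0.21 to 0.93). In the alternative complement pathway that adipsin opens, C3 was at 400 and 416 FPKM and Cfb, the substrate of factor D, at 153 and 161 FPKM (log2 ratios 0.06 and 0.07). Cfp, encoding properdin, a product of myeloid cells, was lower at 131 and 86.4 FPKM (-0.60, interval -0.68 to -0.53).

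Of 8 tested retinoid genes, Ttr was higher (1.07, interval 0.80 to 1.35) and Crabp2 lower, being listed at 0 in AD1KO and at 0.72 FPKM in fl/fl, while the retinal dehydrogenase Aldh1a2 had a log2 ratio of 0.41 (7.49 and 9.93 FPKM). Among 11 genes that make or use NAD, 0 were higher and only Cd38, an NAD glycohydrolase of immune cells, was lower (6.19 and 4.35 FPKM, -0.51). Nnmt, which methylates nicotinamide and is abundant in fat, was at 200 and 268 FPKM (0.42, interval 0.36 to 0.49). Of 6 Wnt genes beside Sfrp5, 3 were higher, namely Wnt5b (0.99 and 1.85 FPKM, 0.90), Wnt5a and Sfrp2 (19.5 and 30.1 FPKM, 0.62). For apelin, Vegfa, an angiogenic factor, was at 21.3 and 32.5 FPKM (0.61, interval 0.50 to 0.71) and Hif1a at 17.5 and 19.4 FPKM (0.14), while the second ligand Apela stayed under 0.1 FPKM. Over all partner lists, 17 of 86 tested genes were higher and 11 lower, with a median of 0.17. Of all tested genes, 14.3% were higher and 19.1% lower. The whole counting interval lay past the cutoff for 9 higher and 7 lower partner genes. Of the 17 higher and 11 lower genes, 10 and 4 belong to the list of other secreted factors.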

How the data were processed

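RNA-seq of gWAT was performed by BGI on oligo(dT)-selected mRNA, and clean reads were aligned to mouse mm9. The aligner and the quantification program are not given in the sources used here. The authors deposited 1 table with FPKM per gene, writing 0 as 0.01, set back to 0 here. Its unit was inferred from the values. Its columns with the authors' own log2 fold change and their P-value and FDR scores were deposited by the authors from their comparison of the 2 libraries and were not used. Depth was estimated as the value at which low FPKM values of transcripts under 1500 bases, less a length correction of 115 bases, came nearest to whole reads: 82.9% of 532 values in fl/fl and 81.5% of 519 in AD1KO lay within 0.15 of one. Tested genes had 0.1 FPKM or more in either library. Intervals of log2 ratios are Clopper-Pearson and those of levels Poisson, at 95%. PCR reads without molecular identifiers are not independent molecules.

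The members and gene lists were chosen with earlier results of these data known. Beside the members, the targeted gene and the genes nearest to Adipoq and Lep, genes were named by this rule: all of a list of up to 4, otherwise those with the 2 highest and 2 lowest ratios at 1 FPKM or more; Fabp4, Adipor1, Adipor2, Stra6, Cmklr1, Aplnr, Lepr, C3, Crabp2, Sfrp2, Lrrc61, Med16, Grn and Apoe were named after their values were seen. Older symbols were used where the current one was absent. No unnamed transcript was annotated as an adipokine. Scalings by trimmed mean of M-values, upper quartile and median of ratios, other pseudocounts and minimums, and centring on adipocyte markers were alternatives. The steps were tested on simulated data. Promoter windows are from RefSeq (GRCm38.p6) and gene positions from GENCODE (mm9). Scripts ran in Python 3.11.15 with pandas 2.3.3, Matplotlib 3.10.9, SciPy 1.17.1 and NumPy 2.4.6.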

Additional observations from a re-analysis of the deposited data

How the results depend on the processing

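No paired analysis was possible because each genotype had a single pooled library, and for the same reason no replicate could be left out. Among the adipokines, the counting interval of Apln was the widest, and differences between animals set a limit that these libraries cannot show. The 6 higher adipokines stayed past the cutoff under both pseudocounts and all 3 scalings, with no minimum, with a minimum of 1 FPKM and when the whole counting interval had to pass 0.5. Centred on the adipocyte markers, which takes 0.54 off each log2 ratio, 2 adipokines were higher and 1 lower, their median was 0.14, 835 tested genes were higher and 9264 lower, and 2 partner genes were higher and 30 lower. The median of the adipokines was 0.77 with upper quartile scaling, which gave 26 higher partner genes and more higher than lower genes in all (2803 and 2590, beside 2265 and 3029 on the deposited scale). A cutoff of 1 left 2 higher adipokines, 910 higher and 1417 lower genes, and 2 higher and 3 lower partner genes. A pseudocount of 1 FPKM gave 965 higher and 1661 lower genes. The whole counting interval past 0.5 gave 661 and 1312, with 9 and 7 partner genes. A minimum of 1 FPKM gave 1281 higher genes, and a mean of at least 100 FPKM, added after the data were seen, 105 higher and 130 lower. Stricter cutoffs and minimums remove genes by construction.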

Other observations

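Other secreted factors of adipose tissue divided between the libraries. Of 29 tested, 10 were higher in AD1KO and 4 lower, with a median log2 ratio of 0.35. Over all tested genes, 14.3% were higher and 19.1% lower. The whole counting interval lay past the cutoff for 6 of the 10 higher factors and for all 4 lower ones. Agt, encoding angiotensinogen, went from 7.85 FPKM in fl/fl to 24.6 FPKM in AD1KO (log2 ratio 1.65, interval 1.44 to 1.87), a larger ratio than that of any of the 9 adipokines. Npr3, the natriuretic peptide clearance receptor, which can be shed, went from 96.1 to 160 FPKM (0.74, interval 0.71 to 0.77), and Hp, a plasma haemoglobin scavenger, from 2212 to 3599 FPKM (0.70). The lower genes were Cxcl14, a chemokine (18.3 and 6.46 FPKM, -1.50, interval -1.74 to -1.26), Metrnl, a secreted factor of fat and macrophages (48.5 and 26.4 FPKM, -0.88), Grn, the progranulin gene (433 and 281 FPKM, -0.62), and Apoe, an apolipoprotein abundant in macrophages (3111 and 2110 FPKM, -0.56).

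Of the 18 nearest tested protein-coding neighbours on the chromosomes, 1 on either side of each adipokine, 3 were higher and 2 lower. Their median log2 ratio was 0.11. Over all tested genes, 14.3% were higher and 19.1% lower. Elane (7 and 15 reads) and Lgi1 (7 and 14 reads), both counted as higher, had intervals that include 0. The intervals of the other higher neighbour and of the lower ones did not. Neutrophil and brown adipocyte markers were mixed. Of 6 tested neutrophil markers 3 were higher and 2 lower. Of 8 tested brown adipocyte markers 2 were higher and 2 lower. Ucp1, the uncoupling protein of brown fat, was at 8.39 FPKM in fl/fl and 1.38 FPKM in AD1KO (log2 ratio -2.60). Elovl3, a fatty acid elongase gene, went the other way, at 0.45 and 1.23 FPKM (1.43, interval 0.54 to 2.45). In each of these lists the whole counting interval lay past the cutoff for only 1 higher and 1 lower marker. Reproductive tract epithelial markers were lower in 4 of 7 cases and B cell markers in 4 of 6. Their whole counting interval lay below -0.5 for 3 and 1 of them. In the reproductive tract list, Ovgp1 was at 3.51 FPKM in fl/fl and 0.17 FPKM in AD1KO (log2 ratio -4.29). Wfdc2 was at 3.64 and 0.39 FPKM (-3.19), while Krt8 and Krt18 stayed within the cutoff. The part of tissue other than fat in the libraries was not tested. Preadipocyte and stromal markers were higher in 2 and lower in 2 of 10.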
